A study of Apis mellifera ligustica with 12 samples.

Results

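The miR-279 and miR-996 family was examined in 12 small RNA libraries from the brains of Apis mellifera ligustica workers. The members were taken by name, as every listed miRNA whose identifier names miR-279 or miR-996 after the honeybee prefix ame. They were ame-miR-279a-3p, ame-miR-279b-3p, ame-miR-279c-3p, ame-miR-279d-3p and ame-miR-996-3p, which are 5 of the 1350 listed miRNAs and 5 of the 180 listed as honeybee miRNAs. A further identifier, ame-miR-2796-3p, begins with the same characters but carries another number and another seed, and it was left out. All 5 members were counted in every library, and all 5 passed the filter of the tests described here (at least 10 counts summed over the libraries).

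The libraries fall into 4 groups of 3. The CK libraries were from untreated bees, and the D10, D20 and D30 libraries (X1D10, X1D20 and X1D30 in the sample labels) were from bees sampled 10, 20 and 30 days after fluvalinate strips were first hung in the hive. Fluvalinate is a pyrethroid used against Varroa mites. All bees were adult foragers, and each library was made from the pooled brains of workers from 1 colony, so that differences between single bees were not measured. The study compares times before and after treatment, and CK was therefore read as the sampling before treatment, although its library names say only untreated. The study also kept control colonies, and whether CK came from them is not stated. Where a group differs from CK, the effects of treatment and of sampling date cannot be told apart. If CK came from control colonies, a difference between colonies cannot be told apart from these either. A library held between 8454313 and 15979901 counts on listed miRNAs, and its values are given as the deposited TPM (reads scaled to a library total, without length correction) unless counts are named.

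miR-279 and miR-996 are 3p-arm miRNAs with the same seed, the bases near the 5′ end that pair with target mRNAs. In Drosophila they are processed from 1 transcript and largely share their targets. There, miR-279 represses nerfin-1, a transcription factor of early neurons, and keeps CO2-sensing neurons from forming in the wrong place. It also acts on the JAK/STAT pathway in migrating border cells and in the neurons that carry circadian output, and both miRNAs limit the repressors of Notch signaling in sensory bristles. These roles come from Drosophila, and none was measured in these bees.

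The mature sequences are shown because they define the family and show where its members differ. They are given 5′ to 3′ in DNA letters as deposited, ordered by mean level, with the seed (bases 2 to 8) in capitals.
ame-miR-279a-3p: tGACTAGAtccacactcattaa
ame-miR-279d-3p: tGACTAGAtccacactcatcca
ame-miR-279c-3p: tGACTAGAgtcacactcgtcca
ame-miR-996-3p: tGACTAGAtacatactcgtct
ame-miR-279b-3p: tGACTAGAtcgaaatactcgtccc

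The seed was identical in all 5 members, and the differences lay downstream of it. With positions counted from 1 at the 5′ end, miR-279a and miR-279d shared their first 19 bases and differed by T20C and A21C (the base of miR-279a first). miR-996 differed from miR-279a by C10A, C13T, A18G, T20C and A21T over the 21 bases they have in common. miR-279d and miR-279c differed by T9G, C10T and A18G, so that they shared their last 4 bases. miR-279b was the longest, with 24 bases, and left the sequence of miR-279a after its first 10 bases. Reads of miR-279a and miR-279d can be told apart only by their last bases, and the assignment of such reads is the authors'.

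Beyond the members, 3 listed identifiers carry these numbers without the honeybee prefix, which marks miRNAs that the authors matched to other species.
miR-279-y: cTGACTAGatccacactcatt
miR-996-y: tGACTAGAgtcacactcgtaa
miR-279-x: aTGGGTTTgaattcagtccacg

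miR-279-y began 1 base upstream of miR-279a and matched it over the 20 overlapping bases with 0 mismatches, so that its bases 2 to 8 are another seed. It had 1490 counts in all libraries, against 390759 counts of miR-279a, which was 0.385% ± 0.0602 of the joint counts (SD, n = 12). miR-996-y had the seed of the family, as the only listed miRNA outside the members with that seed at bases 2 to 8. Its first 19 bases were those of miR-279c, whereas it shared only the first 8 with miR-996, whose number it carries. It was rare, with between 3 and 24 counts per library. miR-279-x is by its name an entry of the 5p arm (the study equates the ending x with 5p for another miRNA), and its hairpin was not examined. It had between 3 and 42 counts per library. It made up 0.0347% ± 0.0167 of the counts of itself and the 5 members together (SD, n = 12).

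The hairpins lie on 4 chromosomes of the honeybee genome (coordinates from the RefSeq genes of Amel_HAv3.1, which is also the assembly the authors aligned to). Mir279a (LG5, 11449951 to 11450050) and Mir996 (LG5, 11450180 to 11450270) were 129 bases apart, and both lay within the span of the protein-coding gene LOC724926. Mir279d (LG9, 7516135 to 7516216) lay within no annotated gene. Mir279c (LG2, 9533228 to 9533314) lay within the span of LOC100578119. Mir279b (LG15, 1859635 to 1859761) lay within the span of LOC409485, in a row of miRNA genes, 26 bases from Mir9c and 16 bases from Mir3791. Whether these positions are exonic or intronic was not examined.

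The members differed widely in level, and their order was the same in every library. miR-279a was the most abundant at 2332 ± 317 TPM (SD, n = 12) and ranked 25th among all listed miRNAs. miR-279d followed at 1089 ± 162 TPM, and miR-279c at 499 ± 157 TPM. miR-996, the neighbour of miR-279a on LG5, averaged only 95.6 ± 56.7 TPM. miR-279b was the lowest at 4.47 ± 0.989 TPM. The order miR-279a, miR-279d, miR-279c, miR-996, miR-279b held in 12 of 12 libraries, and the ranges of neighbours in that order did not overlap. The narrowest gap was between miR-279d, whose lowest value was 847 TPM (D30-3), and miR-279c, whose highest value was 800.0 TPM (D10-2). Together the members took 0.437% ± 0.0594 of the listed counts (SD, n = 12), between 0.351% in CK-1 (95% Wilson interval 0.347% to 0.355%) and 0.548% in D30-2 (0.544% to 0.552%). Of the family's counts, 58.1% ± 3.67 were of miR-279a and 27.1% ± 2.16 of miR-279d. These intervals cover counting error only.

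**Figure D1:**
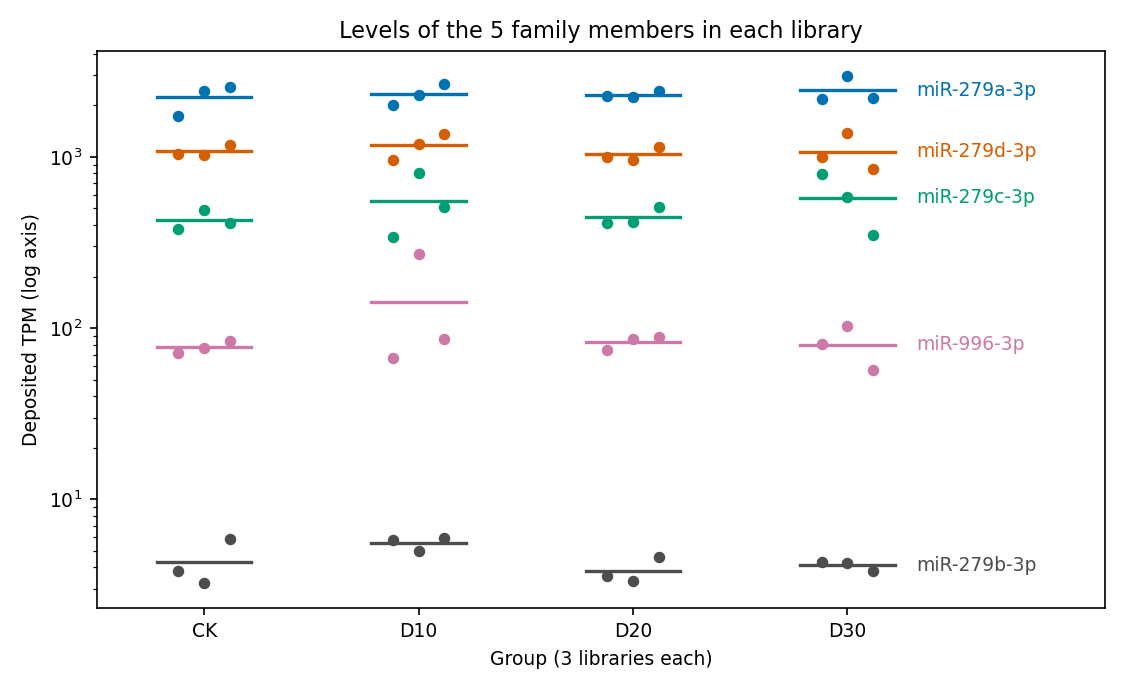
Deposited TPM of the 5 members (log axis) in the CK, D10, D20 and D30 groups, with a point per library and a line at each group mean. The 5 members form separate layers from miR-279a at the top (2332 TPM on average) to miR-279b at the bottom (4.47 TPM), and the single point far above its layer is miR-996 in D10-2 (272 TPM).

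miR-279a and miR-279d varied least. miR-279a had 1732, 2411 and 2563 TPM in CK, 2009, 2306 and 2673 TPM in D10, 2270.4, 2229 and 2432 TPM in D20, and 2193, 2965 and 2196 TPM in D30. The lowest library was CK-1 and the highest D30-2, 1.71-fold apart, and the 4 groups overlapped. Its coefficient of variation over the 12 libraries was 13.6%, against 0.554% from counting error alone.

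miR-996 had 71.7, 76.3 and 84.5 TPM in CK, 67.1, 272 and 86.0 TPM in D10, 74.6, 86.3 and 88.3 TPM in D20, and 80.5, 103 and 57.3 TPM in D30. Library D10-2 stood alone: its value was 2.65-fold above the next highest, in D30-2, while the other 11 libraries lay between 57.3 and 103 TPM. The other D10 libraries were within the range of the remaining groups. The 3845 counts behind the D10-2 value make counting error small. The ratio of miR-279a to miR-996, which share a locus, averaged 27.8 ± 7.05 (SD, n = 12). It was 8.48 in D10-2 and between 24.2 and 38.4 in the other libraries, and miR-279a in D10-2 (2306 TPM) was close to its median over all libraries (2288 TPM).

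Library D10-2 stood apart in more than miR-996. Of 291 miRNAs with at least 10 counts in each library, 14 were at least 2-fold higher in D10-2 than in every other library, a number that was between 0 and 4 in the other libraries. The 14 included miR-996 and were led by ame-miR-219-5p (651 TPM, against at most 34.3 TPM elsewhere). The summed level of the 5 neuronal markers, all of them counted in every library, was 38258 TPM in D10-2. It was between 20644 and 27515 TPM in CK, 24357 and 38258 TPM in D10, 23541 and 30061 TPM in D20, and 22833 and 27255 TPM in D30. The main part of it was miR-124-3p, an abundant miRNA of neurons, with 31131 TPM in D10-2 and at most 21713 TPM elsewhere. miR-1000-5p was also highest in D10-2 (40.9 TPM, against at most 19.9 TPM elsewhere). The other 3 neuronal markers were within the range of the other libraries there, with 1805 TPM of miR-7-5p, 517 TPM of miR-9a-5p and 4764 TPM of miR-137-3p. The 2 midgut markers were miR-281-3p and miR-281-x, which the study equates with the 5p arm of miR-281. They summed to 706 TPM in D10-2, and to between 198 and 300.2 TPM in CK, 562 and 779 TPM in D10, 245 and 329.9 TPM in D20, and 191 and 665 TPM in D30. All 3 D10 libraries were thus above all CK and D20 libraries in these markers. The study lists both among its differentially expressed brain miRNAs after fluvalinate, and miR-281-x among its key miRNAs. Whether they stand for gut tissue in these libraries was not tested. Of the pair, miR-281-3p was highest in D10-2 (96.5 TPM, against at most 65.3 TPM elsewhere), whereas miR-281-x (609 TPM) was within the range of the other libraries. The 2 muscle markers summed to 3049 TPM in D10-2, within the range of 2981 to 5036 TPM of all libraries, and none of the 9 markers was at 0 in any library. The part of these differences in the values of the members was not tested. Fewer cells of a type and less of a miRNA per cell cannot be told apart in pooled brains. Library D30-3 also stood apart, with 837 miRNAs counted, against 510 to 626 in the other libraries.

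miR-279d had 1037, 1028 and 1171 TPM in CK, 959.7, 1187 and 1356 TPM in D10, 1001, 961 and 1144 TPM in D20, and 993, 1379 and 847 TPM in D30. Its coefficient of variation was 14.9%, its highest value was 1.63-fold above its lowest, and its highest library, D30-2, was also that of miR-279a. The ratio of miR-279a to miR-279d was 2.16 ± 0.232 (SD, n = 12) and lay between 1.67 in CK-1 and 2.59 in D30-3.

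miR-279c varied more. It had 378, 488 and 412 TPM in CK, 341, 800.0 and 507 TPM in D10, 409.7, 419 and 508 TPM in D20, and 798, 582 and 348 TPM in D30. Its highest libraries were D10-2 and D30-1, and its coefficient of variation was 31.5%, against 1.20% from counting error. Within D10 and within D30 the highest library was over 2-fold above the lowest.

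miR-279b had 3.81, 3.27 and 5.89 TPM in CK, 5.77, 5.02 and 5.97 TPM in D10, 3.58, 3.34 and 4.59 TPM in D20, and 4.30, 4.25 and 3.80 TPM in D30. All 3 D10 libraries were above all D20 and D30 libraries, while CK-3 reached the D10 range. These values rest on 35 to 90 counts per library, so that counting error alone gives a coefficient of variation of 12.7%, against the 22.1% observed.

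**Figure D2:**
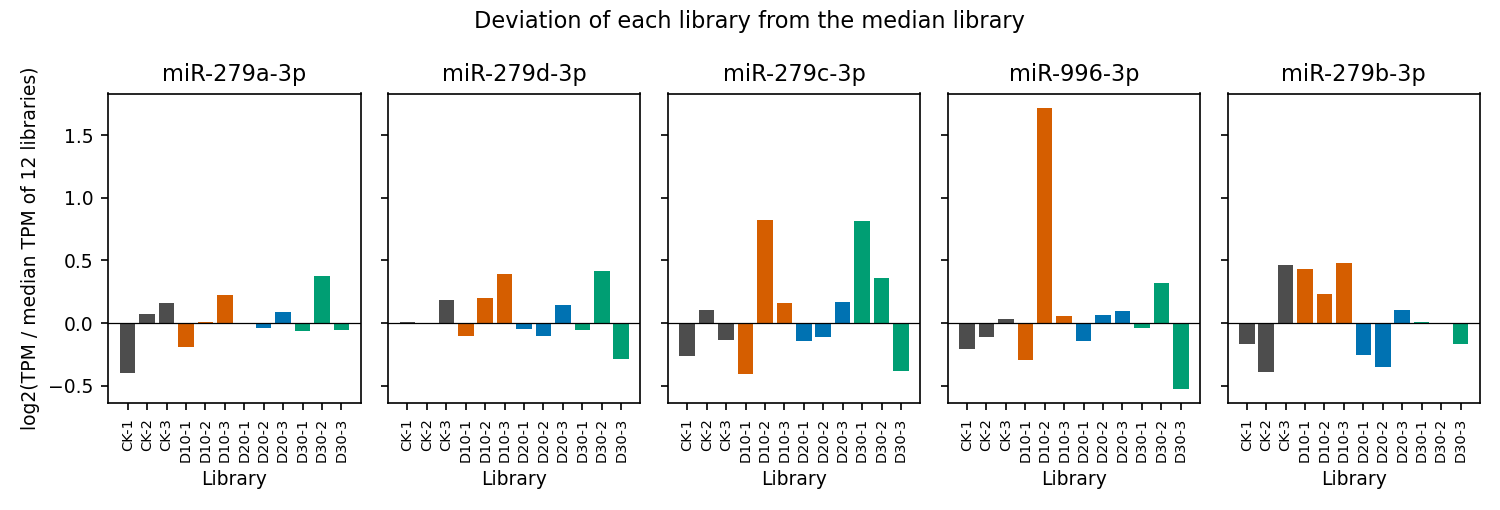
Deviation of each library from the median of the 12 libraries, as log2 of the TPM over the median TPM, with 1 panel per member and 1 bar per library in the order CK, D10, D20 and D30. miR-996 has 1 tall bar, D10-2, whereas miR-279c has tall bars at both D10-2 and D30-1, and the bars of miR-279a and miR-279d are short.

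Differences between groups were tested to ask whether the family changed after fluvalinate treatment. No member passed the test in any of the 6 comparisons between groups. The test was edgeR's quasi-likelihood F test on the deposited counts of 787 miRNAs, and a miRNA was called when its Benjamini-Hochberg adjusted p was under 0.05 and its absolute log2 fold change above 1. It called 0 of the 5 members, and 0% of all 787 miRNAs, in D10, D20 and D30 against CK, in D20 and D30 against D10 and in D30 against D20. The test over the 4 groups together called 0 of the 5 members as well, against a background of 0%, and the smallest adjusted p among them was 0.538 (miR-996). At an unadjusted p under 0.05 the number of members was also 0 in each comparison, while the share of all miRNAs was 6.1% in D10 against CK, 4.07% in D20 against CK and 6.86% in D30 against CK. It was 6.1% in D20 against D10, 11.2% in D30 against D10, 7.62% in D30 against D20 and 9.78% over the 4 groups together. DESeq2, limma and the other settings tried called 0 members too. The study, which also used edgeR with these thresholds, did report differentially expressed miRNAs. It measured a selection of them by qRT-PCR as well, and reported that all of these but miR-750-y followed the sequencing. Why its calls differ from those given here was not examined.

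In D10 against CK, all 5 members had a positive log2 fold change, with a median of 0.38 against 0 over all miRNAs tested. The signs held under each scaling tried, but 3 of them turned when 1 library was left out (miR-996 and miR-279c without D10-2, miR-279a without CK-1). miR-996 averaged 142 ± 113 TPM in D10 and 77.5 ± 6.52 TPM in CK (SD, n = 3 each), and its log2 fold change was 0.89 with a standard error of 0.46 (95% interval -0.13 to 1.91, edgeR adjusted p = 0.904). This value rested on library D10-2, and without it the log2 fold change was -0.014. Over the alternatives the adjusted p of miR-996 was between 0.331 (DESeq2) and 1. miR-279c averaged 549 ± 232 TPM in D10 and 426 ± 56.0 TPM in CK, with a log2 fold change of 0.38 ± 0.33 (SE) that was -0.0022 without D10-2. miR-279b averaged 5.59 ± 0.499 TPM in D10 and 4.32 ± 1.38 TPM in CK, with a log2 fold change of 0.38 ± 0.26 (SE). Beside these values, the midgut markers summed to 562 to 779 TPM in D10 and 198 to 300.2 TPM in CK, and their part in the differences was not tested. miR-279a and miR-279d were closest between these groups, with log2 fold changes of 0.06 (-0.023 without CK-1; 95% interval -0.33 to 0.45) and 0.12 (-0.27 to 0.51), so that a 2-fold change lay outside both intervals.

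In D20 and D30 against CK the signs were mixed. In D20 against CK the log2 fold changes were 0.13 for miR-279a, 0.02 for miR-279d, 0.15 for miR-279c, 0.19 for miR-996 and -0.09 for miR-279b, and the median over all miRNAs tested was 0. In D30 against CK they were 0.13, -0.01, 0.42, 0.04 and -0.06 in the same order. The median over all miRNAs tested was 0.25 in D30 against CK and between 0.08 and 0.33 over the alternatives, and 4 of the 5 members lay below 0.25 in this fit. This background depended on library D30-3, and without it the median was 0.09. The members then had log2 fold changes of 0.14, 0.079, 0.62, 0.18 and -0.078 in the same order, so that they did not lie mostly below the median. The log2 fold change of miR-279c in D30 against CK had a 95% interval of -0.31 to 1.15 (adjusted p = 0.583, the smallest of the members in that comparison) and was 0.14 without D30-1. The intervals of miR-279a, miR-279d and miR-279b excluded a 2-fold change in each of the comparisons with CK. Those of miR-279c and miR-996 extended past 2-fold in D10 and D30 against CK, and that of miR-996 did so in D20 against CK as well.

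**Figure D3:**
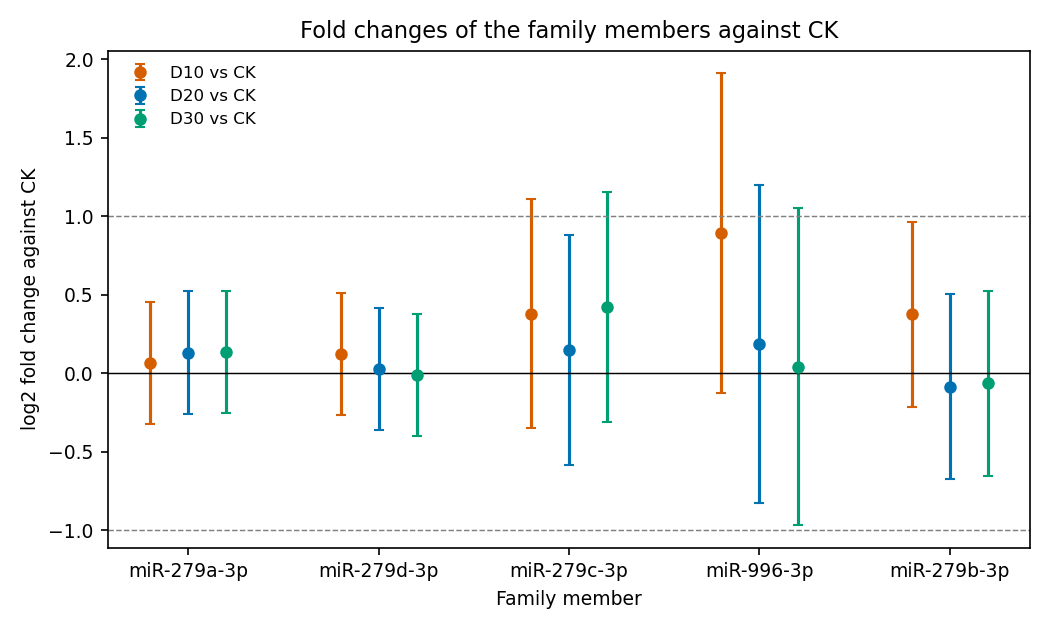
log2 fold change against CK of each member in D10, D20 and D30 (points) with 95% intervals from the edgeR fit (bars) and dashed lines at the 2-fold threshold. Every interval includes 0, those of miR-279a and miR-279d are the narrowest, and the highest point is miR-996 in D10 (0.89).

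Against D10, the lowest-expressed member was the only one whose groups did not overlap. miR-279b was lower in all 3 D20 libraries and in all 3 D30 libraries than in any D10 library, and such separation in either direction was seen for 9.91% of all miRNAs in D20 against D10 and 11.2% in D30 against D10. Its log2 fold change was -0.46 ± 0.26 (SE) in D20 against D10 (edgeR adjusted p = 0.761) and -0.44 ± 0.26 in D30 against D10 (edgeR adjusted p = 0.438), neither of which passed the test. The midgut markers, too, were lower in all D20 libraries (245 to 329.9 TPM) than in any D10 library (562 to 779 TPM), while D30 overlapped D10 (191 to 665 TPM), and their part in the values of miR-279b was not tested. These comparisons share the D10 libraries. miR-996 had log2 fold changes of -0.70 in D20 against D10 and -0.85 in D30 against D10, which were 0.20 and 0.055 without library D10-2. In D10, D20 and D30 against CK and in D30 against D20, the groups of 0 members were separate, against 9.53%, 12.1%, 10.3% and 9.78% of all miRNAs.

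The levels of the members were then compared across libraries, as Pearson's r and Spearman's rho of log2(TPM + 1) over the 12 libraries for the 10 pairs of members, with permutation p-values adjusted over the 10 pairs. All 10 pairs had a positive r, with a median of 0.41, against a median of 0.02 (quartiles -0.25 and 0.30) over the 42195 pairs of 291 miRNAs. The sign held for 8 of the 10 pairs with the group means subtracted and for 9 without D10-2, and the pairs that turned were of miR-279b, with miR-279c (-0.012 and -0.0054) and with miR-996 (-0.075 with group means subtracted). The pairs share the same 12 libraries and their 5 members, and are not independent of each other.

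The pair miR-279c and miR-996 had the highest r, at 0.71 (permutation p = 0.0032, adjusted 0.032), and a rho of 0.84 (permutation p = 0.00098, adjusted 0.0098). An r at least as high was seen in 2.84% of all pairs. Without the 2 libraries farthest from the median of miR-279c (D10-2 and D30-1) r was 0.85, and without D10-2 alone it was 0.61 (permutation p = 0.0496, adjusted 0.124). With the group means subtracted r was 0.78, but the p over all 1296 permutations within groups was 0.0617 (adjusted 0.206). This pair is on different chromosomes.

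The pair miR-279a and miR-279d, whose first 19 bases are the same, had an r of 0.70 (permutation p = 0.0111, adjusted 0.0555) and a rho of 0.77 (adjusted 0.0234). Without the 2 libraries farthest from the median of miR-279a (CK-1 and D30-2) r was 0.80. With the group means subtracted it was 0.77, with a permutation p within groups of 0.00463 (adjusted 0.0463). The value was 0.71 without D10-2, and leaving out each library in turn gave 0.56 (without D30-2) to 0.86 (without CK-1).

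The clustered pair miR-279a and miR-996 had an r of only 0.25 (permutation p = 0.357, adjusted 0.51), with a rho of 0.66 (permutation p = 0.0218, adjusted 0.0545). Without library D10-2 its r was 0.68 (permutation p = 0.0235, adjusted 0.0782), and without the 2 libraries farthest from the median of miR-279a (CK-1 and D30-2) it was 0.17. miR-279d and miR-996 likewise had an r of 0.50 (permutation p = 0.109, adjusted 0.264) and a rho of 0.72 (permutation p = 0.0108, adjusted 0.0362), and their r was 0.81 without D10-2 (adjusted p = 0.0235 by permutation). The 4 pairs with miR-279b had values of r between 0.11 and 0.49, with adjusted p between 0.264 and 0.739 by permutation. In all, 1 of the 10 pairs passed an adjusted p of 0.05 by r, 3 by rho and 1 within groups. Leaving out each library in turn, between 0 and 2 pairs passed by r, with 0 without D10-1, D10-3, D20-3 or D30-3.

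**Figure D4:**
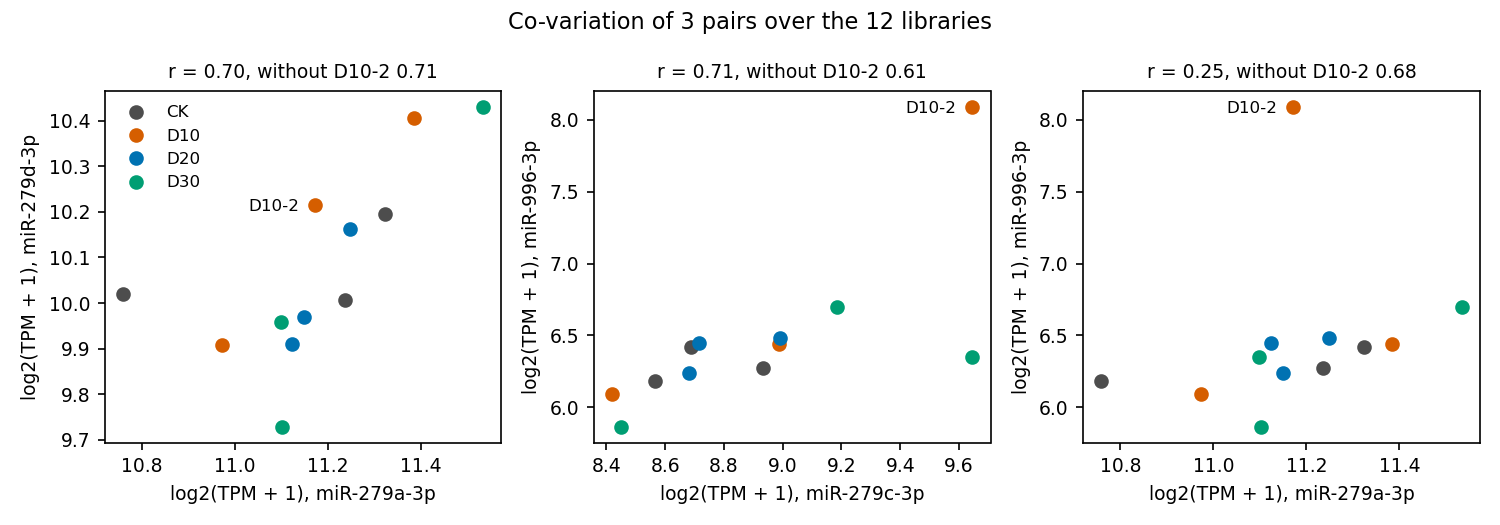
log2(TPM + 1) of 3 pairs of members, with a point per library in the color of its group and library D10-2 named. miR-279a and miR-279d rise together (r = 0.70), miR-279c and miR-996 rise together with D10-2 at the upper right corner (r = 0.71), and in miR-279a and miR-996 the D10-2 point lies above the others (r = 0.25, and 0.68 without it).

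The libraries fall into classes of 7 with a higher and 5 with a lower share of high-quality reads, by the study's read statistics. Within the 7 libraries of the higher class, r was 0.96 for miR-279c and miR-996 (exact permutation p = 0.000595, adjusted 0.00595) and 0.88 for miR-279d and miR-279b (exact permutation p = 0.00774, adjusted 0.0387). It was 0.51 for miR-279a and miR-279d (exact permutation p = 0.236) and 0.22 for miR-279a and miR-996 (exact permutation p = 0.446). This class includes D10-2, the highest library of both miR-279c and miR-996, but not D30-1, where miR-279c alone was high. Over all libraries but D10-2, the r of miR-279c and miR-996 was 0.61 (adjusted p = 0.124 by permutation). The class of 5 holds fewer libraries than the 6 set as the least for a correlation, and no value is given for it. With the class as a term in the edgeR fit, 0 members were called in each of the 6 comparisons, and the log2 fold change of miR-996 in D10 against CK was 0.77.

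miR-279b was compared with the other miRNAs of its row on LG15 that had at least 10 counts in each library. The 4 values of r, with miR-318-3p, miR-2944-3p, miR-3791-3p and miR-3478-3p, were between -0.28 and 0.22, with adjusted p of 0.483 by permutation over these pairs and that of miR-279a and miR-996. The levels in the row also differed, from 0.317 ± 0.192 TPM for miR-9c-3p, which had too few counts for a correlation, to 132 ± 16.02 TPM for miR-3791-3p (SD, n = 12).

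Among the 291 miRNAs compared, those outside the family whose levels followed miR-279a most closely over the 12 libraries were the predicted m0100-5p (r = 0.70, 3.38 ± 0.760 TPM), miR-4286-z (r = 0.62, 40.7 ± 16.2 TPM) and ame-miR-3743-3p (r = 0.60, 8.24 ± 3.02 TPM). They are given by their r alone, as the highest of many.

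A selection was made of other miRNAs known from Drosophila to act on the circadian clock or its output, as miR-279 does. It held bantam, let-7 and the miR-92, miR-124, miR-210, miR-263, miR-276 and miR-375 families, and is not a complete set. With ids of either arm taken, it came to 12 listed honeybee miRNAs. The edgeR test called 0 of the 12 in each of the 6 comparisons, against 0% of all miRNAs tested. The study, which also used edgeR with the same thresholds, did report ame-miR-375-3p, which is on the list, as differentially expressed. At an unadjusted p under 0.05 there were 3 of the 12 in D10 against CK (2 higher and 1 lower), against 6.1% of all miRNAs. Without library D10-2 there was 1 of the 12, against 39 of 776 miRNAs. In D20 against CK there were 0 (4.07% of all miRNAs), and 2 of the 12 without D10-2 (44 of 776 miRNAs). In D30 against CK there was 1, higher (6.86%). There was 1, lower, in D30 against D10 (11.2%), and 0 in D20 against D10 (6.1%) and in D30 against D20 (7.62%). Their median log2 fold changes were 0.09, 0.12 and 0.01 in D10, D20 and D30 against CK, against 0, 0 and 0.25 over all miRNAs tested. Without library D30-3 the median over all miRNAs tested in D30 against CK was 0.09.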

How the data were processed

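Small RNAs, selected by size from the total RNA of pooled worker brains, were sequenced on an Illumina HiSeq. The authors filtered the reads, dropped tags read fewer than 2 times and those of other RNAs or of exons, introns and repeats, and used Bowtie to match what was left to miRNAs. The authors deposited, per library, unnormalized counts per miRNA and TPM values, scaled by a total that exceeds the listed counts of the library, with 0 written as 0.01. Reads that fit several miRNAs were assigned by the authors. Depth was 8454313 to 15979901 counts per library, so that 3 counts are 0.188 to 0.355 CPM.

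Groups were taken from the sample titles. Counts of 787 miRNAs with at least 10 counts were tested with edgeR 4.0.16 in R 4.3.3 (TMM, quasi-likelihood F test, Benjamini-Hochberg adjustment within a comparison), in 1 fit of all 12 libraries with 4 group means. A standard error is the size of the log2 fold change over the root of its F. DESeq2 1.42.0, limma 3.58.1 and other settings were alternatives, and the read-quality class as a term was added after seeing the data. Correlations used 100000 permutations, or all permutations for 7 libraries and within groups, in Python 3.11.15 with numpy 2.4.6 and scipy 1.17.1. The scripts were tested on simulated data. The number of columns of per-sample values left unused was 0.

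The miRNAs named were the members, entries with their numbers, seed or near-identical sequence (at most 1 mismatch over at least 18 bases) and the 3 that followed miR-279a most closely. Others named were chosen after their values were seen. The members and lists were chosen with earlier results of these data known. Sequences are those of the deposited tables. No pair of replicate libraries agreed within sampling noise, which at these depths does not show that they are independent. The study sampled each of its colonies at every time, so that libraries of different groups may come from the same colonies. The sources used here do not say whether equal replicate numbers are 1 colony, and the main fit used no pairing. The p-values measure the spread between these libraries and treat them as independent, which repeated sampling of a colony would not meet.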

Additional observations from a re-analysis of the deposited data

How the results depend on the processing

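All 26 alternatives called 0 members in each of the 6 comparisons, and 0 in the test of the 4 groups together where it was run. The smallest adjusted p of a member over them was 0.213 (DESeq2, D30 against D10). At most 2 of the 5 members reached an unadjusted p under 0.05. This was so in D10 against CK without D10-1, beside 64 of 783 miRNAs, and in D30 against D10 with DESeq2, beside 82 of 787. Over all miRNAs tested, where edgeR called 0, DESeq2 called 6 in D10 against CK, 2 in D20 against CK, 1 in D30 against CK, 5 in D20 against D10, 2 in D30 against D10 and 0 in D30 against D20. With the read-quality class as a term edgeR called 24 in D30 against D10 and 66 in D30 against D20, none of them a member. All D20 libraries were in the higher class, and of the D30 libraries only D30-3 was. Class and group can therefore not be fully separated in that fit. With the replicate number as a block the count of members called was also 0. Same-numbered libraries had correlations of their deviations between -0.15 and 0.20, with 3 of 18 above 0.1. Other pairs lay between -0.25 and 0.23, with 6 of 36 above 0.1. For 6 of 12 libraries the mean correlation was higher with same-numbered libraries than with differently numbered ones. Values this weak, from 3 libraries per group, cannot decide whether equal numbers are 1 colony. The block turned the log2 fold change of miR-996 in D30 against CK to -0.0020, and it changed no call of a member. Over all miRNAs tested, the fit with the block called 1 in D30 against CK and 1 in D30 against D10.

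Of all 420 log2 fold changes (5 members in 6 comparisons) under alternatives other than leaving out a library, 31 changed sign, and their largest size was 0.064. Among the 266 of the 19 fold changes given above, 7 did. miR-279d in D20 against CK was -0.060 with limma on log2(TPM + 1), -0.061 with limma on log2(TPM + 0.1), -0.064 with library totals, -0.028 without miRNAs counted almost only in 1 library and -0.025 with only the 2 groups in the fit. In D30 against CK it was 0.0011 with no filter. The cause was not tested.

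With 1 library left out, 61 of all 360 values changed sign, by size at most 0.31, and 23 of 228 among the same 19. In D10 against CK the ranges were -0.023 to 0.25 for miR-279a, 0.073 to 0.32 for miR-279d, -0.0022 to 0.70 for miR-279c, -0.014 to 1.29 for miR-996 and 0.30 to 0.74 for miR-279b. In D20 against CK they were 0.031 to 0.31, -0.099 to 0.16, -0.0085 to 0.35, 0.094 to 0.35 and -0.28 to 0.28 in the same order. In D30 against CK they were -0.020 to 0.25, -0.21 to 0.079, 0.14 to 0.62, -0.15 to 0.18 and -0.21 to 0.23. For miR-996 they were -1.02 to 0.20 in D20 against D10 and -1.23 to 0.055 in D30 against D10, and both upper ends are without D10-2.

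The number of member pairs past an adjusted p of 0.05 by r was 1 on both other scales. It was 2 within the 7 libraries of higher read quality, which include D10-2. It was 0 to 2 with 1 library left out: 2 without CK-1 and 0 without D10-1, D10-3, D20-3 or D30-3. With group means subtracted, miR-279a and miR-279d passed (r = 0.77) and miR-279c and miR-996 did not (r = 0.78), while miR-279b turned negative with miR-279c (-0.012) and with miR-996 (-0.075). The family's share of the counts was 0.427% to 0.445% with 1 library left out and 0.402% of the authors' TPM total. Depth limits miR-279b, miR-279-x and miR-996-y, which had at most 90 counts in a library.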

Other observations

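The miRNAs whose levels followed miR-996 most closely were looked up after its values were seen. They were miR-33-y (r = 0.96 over the 12 libraries), ame-miR-306-5p (r = 0.96) and miR-306-x (r = 0.95), and r was 0.83, 0.64 and 0.58 without library D10-2. ame-miR-306-5p had 6152 TPM in D10-2 and between 1035 and 1541 TPM in the other libraries. miR-33-y had 93.4 TPM in D10-2 and between 37.1 and 60.0 TPM elsewhere.

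miR-279-x, by its name a 5p-arm entry of the family, was lowest in 2 of the 3 D10 libraries and highest in the other. It had 0.192, 2.97 and 0.459 TPM in D10, against 1.63, 1.27 and 1.52 TPM in CK, on 3, 42 and 5 counts in D10 and 15, 19 and 23 counts in CK. Its share of the counts of itself and the 5 members was 0.00569% in D10-1 (95% Wilson interval 0.00193% to 0.0167%), 0.065% in D10-2 (0.0481% to 0.0878%) and 0.00992% in D10-3 (0.00424% to 0.0232%). The log2 fold change of miR-279-x in D10 against CK was -0.25 with a 95% interval of -2.04 to 1.54 in the edgeR fit. The hairpin it comes from was not examined.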
